A study of Mus musculus with 12 samples.

Results

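The genes described here encode the proteasome: the subunits of its 20S core and 19S cap, its activators and inhibitor, and the chaperones named with them. They were taken as every gene whose symbol begins with Psm, followed by a letter from a to g and a number, on a probe set that carried no other gene symbol. This gave 47 genes on 50 probe sets, of 22180 genes with such a probe set on the array. Psma5, Psmc2 and Psmg2 each had 2 probe sets, and the brighter one stood for the gene. Of the 47, 45 passed a limit on dim signal (a log2 value above 5.29 on at least 3 of the 12 arrays) and entered the test across 15348 genes. The remaining 2 were Psma5, an alpha subunit whose 2 probe sets had group means between 4.85 and 5.19, and Psmb11, the thymus-specific catalytic subunit, with group means between 4.41 and 4.47. Psma4, another alpha subunit, lay only on probe sets shared with a second gene and has no value of its own.

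LSK cells are lineage-negative marrow cells positive for SCA1 and cKIT, among which the haematopoietic stem cells and early progenitors are found. They were sorted from wild type (WT) mice or from mice lacking NIPA (KO), a substrate-binding part of a ubiquitin ligase encoded by Zc3hc1. All animals were older than 20 months, on a C57BL/6 background, and cells of 3 mice were pooled into each sample. Every pool was held for 30 minutes in medium containing 30% serum and the mouse cytokines SCF (50 ng/ml), IL-6 (10 ng/ml) and IL-3 (10 ng/ml), and was then left untreated or given 4 Gy of ionising radiation and harvested after 3 hours in culture. The 4 groups (WT untreated, WT irradiated, KO untreated, KO irradiated) had 3 arrays each, so that untreated cells had also been sorted, cultured and exposed to cytokines. Irradiation took place in the dish, and the sources used here do not name the deleted part of Zc3hc1 or say whether an untreated and an irradiated sample came from the same 3 mice.

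Proteasomes degrade proteins tagged with ubiquitin. The barrel-shaped 20S core is built of rings of alpha subunits, which gate the entrance, and rings of beta subunits, of which Psmb5, Psmb6 and Psmb7 carry the proteolytic sites; the 19S cap recognises, unfolds and feeds in the substrate. In blood cells and under interferon the catalytic subunits can be replaced during assembly by Psmb8, Psmb9 and Psmb10, which gives the immunoproteasome, known for producing peptides that load well on MHC class I. Psmb9 takes the place of Psmb6, Psmb8 that of Psmb5 and Psmb10 that of Psmb7, so the 3 pairs allow a comparison of the immune and the constitutive form position by position.

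The stretches of 250 bases before the start sites of the 3 immunoproteasome genes and of 2 of their partners are shown because the immune genes moved together in the results while their partners did not pass the test. They come from RefSeq promoter windows on build GRCm38.p6, are written 5′ to 3′ on the strand of the gene, and carry in capitals the matches to the motifs described after them. The positions are chr17:34187331-34187580 (minus strand) for Psmb9, chr17:34197945-34198194 (plus strand) for Psmb8, chr8:105938393-105938642 (minus strand) for Psmb10, chr11:70525107-70525356 (plus strand) for Psmb6 and chr14:54617996-54618245 (minus strand) for Psmb5. The annotated Psmb6 gene begins at 70525324, before the start site of its window. The end of the Psmb6 stretch, with the match TGACGGAGC, thus lies inside the gene.
Psmb9: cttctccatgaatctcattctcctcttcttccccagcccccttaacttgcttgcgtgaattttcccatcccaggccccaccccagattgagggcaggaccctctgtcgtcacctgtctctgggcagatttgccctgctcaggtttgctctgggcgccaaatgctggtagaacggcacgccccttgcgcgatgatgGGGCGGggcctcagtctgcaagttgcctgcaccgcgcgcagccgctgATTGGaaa
Psmb8: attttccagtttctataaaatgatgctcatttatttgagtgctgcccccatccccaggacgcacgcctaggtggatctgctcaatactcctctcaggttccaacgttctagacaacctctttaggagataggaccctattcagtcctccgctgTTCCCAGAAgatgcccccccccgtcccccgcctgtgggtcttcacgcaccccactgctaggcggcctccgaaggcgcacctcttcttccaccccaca
Psmb10: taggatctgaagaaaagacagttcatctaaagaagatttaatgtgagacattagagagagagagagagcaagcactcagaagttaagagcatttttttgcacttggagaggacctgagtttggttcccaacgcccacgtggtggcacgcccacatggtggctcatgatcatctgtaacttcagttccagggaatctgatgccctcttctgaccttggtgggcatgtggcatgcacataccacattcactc
Psmb6: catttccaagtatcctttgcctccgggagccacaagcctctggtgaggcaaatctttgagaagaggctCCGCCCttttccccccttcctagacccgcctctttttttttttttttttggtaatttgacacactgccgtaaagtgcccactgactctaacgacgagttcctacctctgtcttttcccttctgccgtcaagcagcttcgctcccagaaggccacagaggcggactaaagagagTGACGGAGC
Psmb5: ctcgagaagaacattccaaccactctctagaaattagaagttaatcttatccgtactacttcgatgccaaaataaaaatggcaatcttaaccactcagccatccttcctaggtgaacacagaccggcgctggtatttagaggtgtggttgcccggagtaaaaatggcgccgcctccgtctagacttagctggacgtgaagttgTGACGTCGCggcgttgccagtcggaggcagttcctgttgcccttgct

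The motifs were searched on both strands in windows of 300 bases (250 before and 50 after the start), of which 32851 were held for all genes and 42 for 39 of the 47 proteasome genes. The gamma-activated site core TTCNNNGAA, bound by STAT proteins, was in 8.3% of all windows and in 3 of the 42, among them that of Psmb8 (TTCCCAGAA). The interferon-stimulated response element core, searched as GAAA repeated after any 2 bases, was in 3.44% of all windows and in 5 of the 42, and these letters were in none of the 3 immunoproteasome windows. The antioxidant response element core TGACNNNGC, bound by NFE2L1 and NFE2L2, was in 12.4% of all windows and in 6 of the 42, including those of Psmb5 (TGACGTCGC) and Psmb6 (TGACGGAGC). The GC box GGGCGG was in 35.7% of all windows and in 23 of the 42 (54.8%), with matches before Psmb9 and Psmb6. The CCAAT box was in 37.4% of all windows and in 14 of the 42 (33.3%), with a match just before the start of Psmb9. None of the matches capitalised overlapped each other, and the Psmb10 stretch had none. The Psmb9 window also overlapped 25 bases of Tap1, its neighbour on the opposite strand. A match is a description of these letters only. No window was held for Psma8, Psmb1, Psmb2, Psmb7, Psmc3, Psmd3, Psmd7 or Psmg2.

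Zc3hc1, the gene removed in the KO, was lower in every KO array, with a change of -2.50 on the log2 scale in untreated cells (limma adjusted p = 1.37e-05) and of -2.28 in irradiated cells (adjusted p = 4.02e-05). Array medians lay between 5.74 and 5.85. The deposited values had been normalised between arrays, so these medians cannot show whether an array differed in overall signal. Of the LSK markers, Kit, Cd34, Flt3, Procr, Meis1 and Hlf had a probe set of their own, and all were above the dim limit. Of the T and NK cell markers 2 of 7 measured were above it (Cd3d and Cd3g, with Cd3e, Cd4, Cd8a, Klrb1c and Ncr1 below). Other lineage genes were present: 4 of 5 measured B cell markers (Cd79a, Cd79b, Pax5 and Ebf1, with Ms4a1 below) and 7 of 8 granulocyte markers (all but Ly6g) were above the limit. The 3 measured erythroid markers averaged 6.60 to 7.53 in the untreated arrays and 5.62 to 6.15 in the irradiated ones, the only marker list whose mean was apart between doses in both genotypes. All their changes were below 0, from -2.24 (Car1) to -0.18 (Klf1) in WT and from -3.16 (Car1) to -0.425 (Klf1) in KO. Within WT the LSK list (10.00 to 10.06 untreated, 9.68 to 9.78 irradiated) and the monocyte list (7.86 to 8.17 and 7.63 to 7.84) were lower after irradiation and the T and NK cell list higher (4.93 to 5.00 and 5.08 to 5.13). Within KO the mast cell list was higher (6.15 to 6.39 and 6.61 to 6.87), and the other lists overlapped between doses. The mast cell changes in KO ran from -0.09 (Ms4a2) to 0.92 (Mcpt8), with 1 of 3 below 0. Changes are given for tested genes. The list means took in every measured gene, also those below the dim limit, such as Fcer1a among the mast cell markers. Among single genes, doses did not overlap for 24.8% in WT and 23.4% in KO. The part of these marker list shifts in the results that follow was not tested. In bulk samples fewer cells of a type and less RNA per cell cannot be told apart.

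After irradiation the 3 immunoproteasome genes fell together, by 1.43 to 1.66-fold averaged over both genotypes, and the assembly chaperones Psmg1 and Psmg2 fell by 1.36 and 1.73-fold. The Psmg2 fall held for its brighter probe set only, as the second one changed by -0.10 (limma adjusted p = 0.484). No other proteasome gene passed the test. Called genes thus made up 5 of the 45 tested (11.1%), which compares with 16.5% of all genes called in the same contrast, and, as all 5 were lower, with 9.6% of all genes called lower, a share near this background. The changes of the 45 genes had a median of -0.12 on the log2 scale, and 34 of them were below 0, where all genes had a median of -0.004 and 51% below 0. Most core and cap genes varied together between arrays, and the 3 immune genes with them, so this count is not one over independent genes. The test was limma's moderated test with Benjamini-Hochberg adjustment over all 15348 genes, two-sided, with a threshold of 0.05.

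Psmb9, the immune counterpart of Psmb6, had log2 values of 9.499, 9.91 and 9.52 in the WT untreated arrays and 9.03, 9.18 and 8.46 in the WT irradiated ones. In the KO it had 9.19, 9.80 and 9.40 untreated and 8.92, 8.61 and 8.74 irradiated. All 6 irradiated arrays lay below all 6 untreated ones, though the gap between the highest irradiated (9.177) and the lowest untreated array (9.186) was small; among all tested genes 8.31% separated the 6 and 6 arrays in either direction. Averaged over genotypes Psmb9 fell by 0.73 ± 0.14 (SE; 1.66-fold, limma adjusted p = 0.00471, 95% interval -1.04 to -0.42).

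Psmb8, which replaces Psmb5, had log2 values of 9.01, 9.24 and 9.05 in WT untreated, 8.49, 8.89 and 8.24 in WT irradiated, 8.87, 9.26 and 8.94 in KO untreated and 8.56, 8.35 and 8.51 in KO irradiated arrays. Untreated and irradiated arrays did not overlap within either genotype, as for 24.8% of all genes in WT and 23.4% in KO, and across genotypes they met where the highest WT irradiated array exceeded the lowest KO untreated one. The averaged fall was 0.56 ± 0.12 (SE; 1.47-fold, limma adjusted p = 0.00603). Psmb10, which replaces Psmb7, had 10.33, 10.49 and 10.23 in WT untreated, 9.91, 10.17 and 9.39 in WT irradiated, 10.16, 10.21 and 10.15 in KO untreated and 9.93, 9.54 and 9.56 in KO irradiated arrays. It showed the same arrangement, apart within each genotype and meeting only across them. It fell by 0.51 ± 0.13 (SE; 1.43-fold, limma adjusted p = 0.015).

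Within a single genotype these 3 genes did not pass the test, with estimates close to the averaged ones. In WT cells the changes were -0.75 for Psmb9, -0.56 for Psmb8 and -0.53 for Psmb10, with limma adjusted p of 0.0562, 0.0696 and 0.116. In KO cells they were -0.71, -0.55 and -0.50, with adjusted p of 0.065, 0.0698 and 0.132. The WT samples of the same number deviated together, and with that pairing taken as a block within genotype all 3 passed in WT, with adjusted p of 0.0355 for Psmb9, 0.0459 for Psmb8 and 0.0481 for Psmb10. Leaving out WT irradiated array 2, the brightest of its group for all 3 genes, also brought them past the threshold in WT (adjusted p of 0.0468, 0.0217 and 0.0456). Psmb9 passed in WT without KO irradiated array 1 too. In KO, Psmb8 passed without WT irradiated array 2 or 3, Psmb9 without WT irradiated array 3, and the ATPase gene Psmc1, on the higher side, without WT irradiated array 2; these arrays enter only through the shared estimate of the spread. Averaged over genotypes, all 3 stayed past the threshold whichever single array was left out. The irradiation effects in KO and WT differed by 0.02 to 0.05 for the 3 genes, with limma adjusted p of 1 and with 95% intervals that reach from -0.58 to 0.68 for Psmb9.

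The constitutive partners gave smaller estimates, and none passed the test. Psmb6 had log2 values of 9.19, 9.36 and 9.12 in WT untreated, 8.95, 9.28 and 8.83 in WT irradiated, 9.07, 9.13 and 9.11 in KO untreated and 9.32, 8.92 and 8.97 in KO irradiated arrays, which overlap in both genotypes. Psmb5 had 11.56, 11.69 and 11.38 in WT untreated, 11.15, 11.89 and 10.94 in WT irradiated, 11.42, 11.56 and 11.26 in KO untreated and 11.45, 10.90 and 11.22 in KO irradiated arrays. Its highest value of all 12 arrays was in irradiated WT cells. Psmb7 had 10.23, 10.29 and 10.05 in WT untreated, 10.04, 10.33 and 9.96 in WT irradiated, 10.11, 10.37 and 10.07 in KO untreated and 10.33, 9.80 and 10.04 in KO irradiated arrays, again overlapping. The averaged changes were -0.12 for Psmb6 (95% interval -0.34 to 0.10), -0.22 for Psmb5 (-0.56 to 0.11) and -0.10 for Psmb7 (-0.34 to 0.14), with limma adjusted p of 0.467, 0.369 and 0.594. The interval of Psmb5 still includes the estimate of its partner Psmb8.

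**Figure D1:**
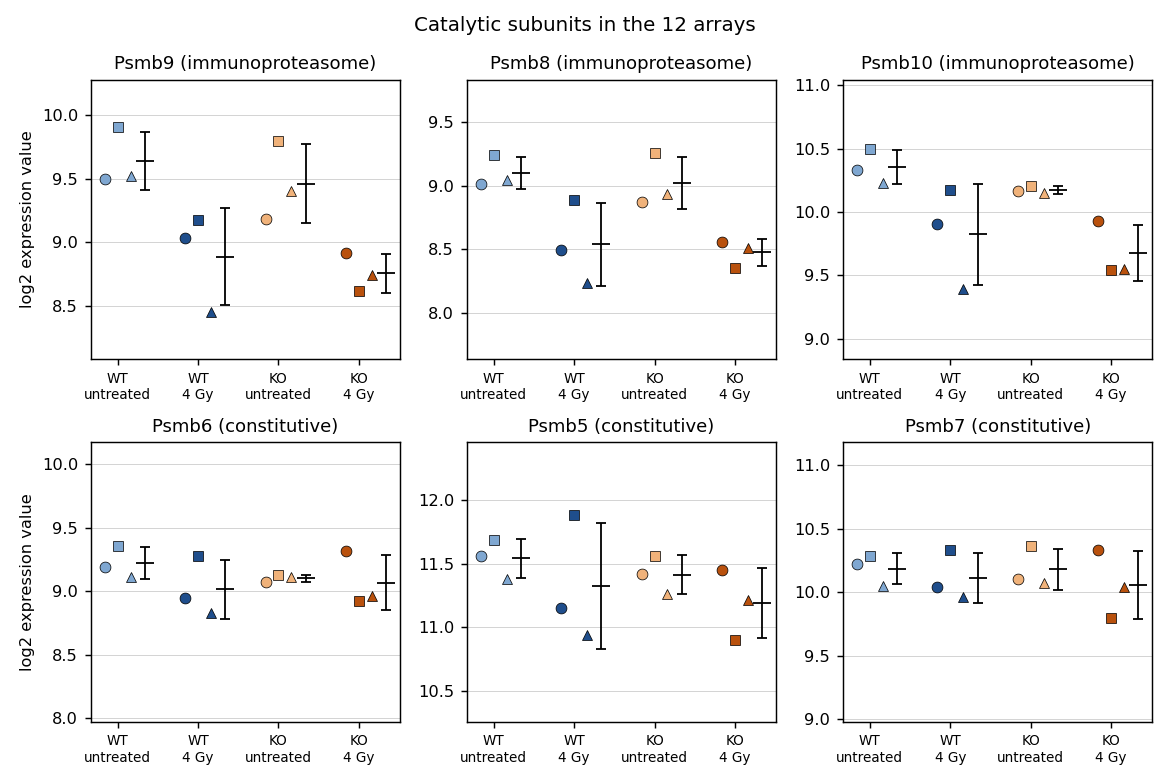
Log2 expression values of the 3 immunoproteasome genes (top) and the constitutive subunits they replace (bottom) in the 4 groups; each symbol is 1 array (circle, square and triangle for replicates 1, 2 and 3), and bars give the mean ± SD (n = 3). The vertical axes start at different levels but span the same range within a column; Psmb9 irradiated arrays lie at 8.46 to 9.18 and untreated ones at 9.19 to 9.91, while the groups of the bottom panels overlap.

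Because each array holds both members of a pair, the immune subunit minus its partner shows how far the 2 moved apart within a sample. The level of this difference depends on the probe sets and has no meaning of its own; only its shift does. The mean of the 3 pairs lay between -0.79 and -0.57 in the 6 untreated arrays and between -1.23 and -0.90 in the 6 irradiated ones, with no overlap. By group it was -0.62 ± 0.08 in WT untreated, -1.07 ± 0.16 in WT irradiated, -0.68 ± 0.10 in KO untreated and -1.14 ± 0.10 in KO irradiated cells (SD, n = 3). Irradiation shifted it by -0.45 in WT and by -0.46 in KO, against a pooled SD of 0.113 within groups. Leaving out any 1 array gave averaged shifts from -0.49 to -0.42. No p is given for a score over genes chosen with their results known. The corresponding shift with genotype, KO minus WT, was -0.07, smaller than that SD.

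The pairs differed among themselves in how cleanly they separated the doses. Psmb9 minus Psmb6 ranged from 0.11 to 0.67 untreated and from -0.41 to 0.09 irradiated, with no overlap and shifts of -0.55 in WT and -0.67 in KO. Psmb10 minus Psmb7 ranged from -0.16 to 0.21 untreated and from -0.57 to -0.14 irradiated, with shifts of -0.46 and -0.37. Psmb8 minus Psmb5 ranged from -2.552 to -2.31 untreated and from -3.00 to -2.549 irradiated, with shifts of -0.34 and -0.32. The Psmb10 and Psmb8 pairs thus overlapped slightly between doses, and whether the pairs differ from each other was not tested.

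**Figure D2:**
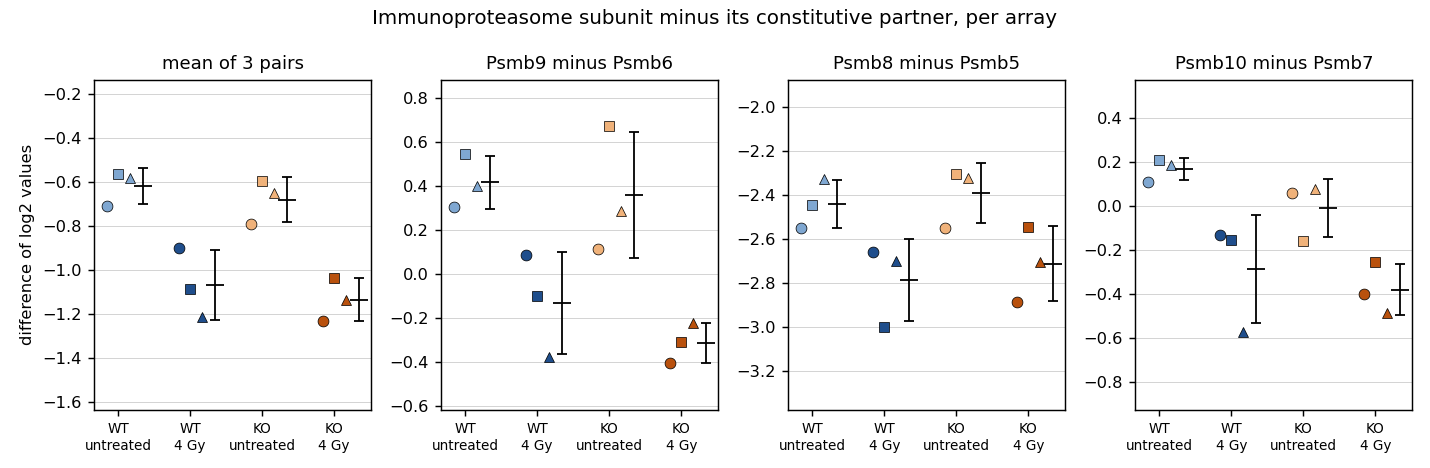
Difference of log2 values, immunoproteasome subunit minus its constitutive partner, in each array (symbols for replicates 1, 2 and 3) with the group mean ± SD (n = 3), for the mean of the 3 pairs and for each pair. In the mean of pairs the untreated arrays lie at -0.79 to -0.57 and the irradiated arrays at -1.23 to -0.90.

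The assembly chaperones, which guide the alpha ring together and are not part of the finished particle, had all 4 averaged estimates below 0. Psmg1, which pairs with Psmg2, had log2 values of 8.57, 8.62 and 8.43 in WT untreated, 7.91, 8.12 and 7.85 in WT irradiated, 8.55, 8.35 and 8.43 in KO untreated and 8.43, 8.08 and 7.91 in KO irradiated arrays. Doses were apart in WT and overlapped in KO, where irradiated array 1 read as high as untreated cells. It fell by 0.44 ± 0.10 averaged (SE; limma adjusted p = 0.00877) and by 0.58 in WT (adjusted p = 0.032), where 2 of 45 proteasome genes were called, both lower, against 4.83% of all genes called and 2.7% called lower. The KO estimate was -0.30 (adjusted p = 0.242), and the effects differed by 0.28 (95% interval -0.15 to 0.70, adjusted p = 1). The WT call was lost without WT untreated array 1 (0.07), 2 (0.13) or 3 (0.0694) and without WT irradiated array 1 (0.077) or 3 (0.125), while the averaged call held without any 1 array. In KO, Psmg1 passed without KO irradiated array 1.

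Psmg2, on its brighter probe set, had log2 values of 7.87, 7.86 and 7.73 in WT untreated, 7.14, 6.92 and 6.86 in WT irradiated, 7.81, 7.65 and 7.36 in KO untreated and 7.27, 6.70 and 6.65 in KO irradiated arrays. All irradiated arrays were below all untreated ones. It fell by 0.85 in WT (limma adjusted p = 0.013) and by 0.74 in KO (adjusted p = 0.0235), where it was the 1 proteasome gene called, against 5.94% of all genes called and 3.2% called lower. The WT call was lost without WT untreated array 2 (adjusted p = 0.0585) or WT irradiated array 3 (0.061), and the KO call without KO untreated array 1 (0.1) or 2 (0.09) or KO irradiated array 2 (0.0974) or 3 (0.0952). The averaged fall of 0.79 ± 0.12 (SE; 1.73-fold, adjusted p = 0.000858) held without any 1 array. The second probe set of the gene did not show it. That probe set read 6.999, 7.08 and 6.99 in WT untreated and 7.05, 6.92 and 6.88 in WT irradiated arrays, and 7.35, 6.89 and 7.20 against 7.04, 7.01 and 7.01 in KO. Its averaged change was -0.10 (limma adjusted p = 0.484), so the 2 probe sets of Psmg2 disagree and the change holds for the brighter one only.

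Psmg3 and Psmg4, the other alpha-ring chaperone pair, had averaged changes of -0.25 and -0.29 that did not pass (limma adjusted p of 0.192 and 0.125). Both passed when KO irradiated array 1 was left out, and so did Psme4 and Psmd11 on the higher side, which took the count of called proteasome genes from 5 to 9. Across the chaperones and Psme4, KO irradiated array 1 was the array of its group nearest to the untreated level. Psme4 encodes PA200, a nuclear activator that caps the 20S core. It had log2 values of 9.12, 8.87 and 9.15 in WT untreated, 9.16, 9.48 and 9.70 in WT irradiated, 8.90, 9.07 and 9.21 in KO untreated and 8.87, 9.61 and 9.58 in KO irradiated arrays. Doses did not overlap in WT, though the nearest arrays were almost level, and overlapped in KO. Its averaged change of 0.35 ± 0.14 (SE) did not pass the test (limma adjusted p = 0.118). It passed with the replicate block within genotype, where 7 proteasome genes were called.

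**Figure D3:**
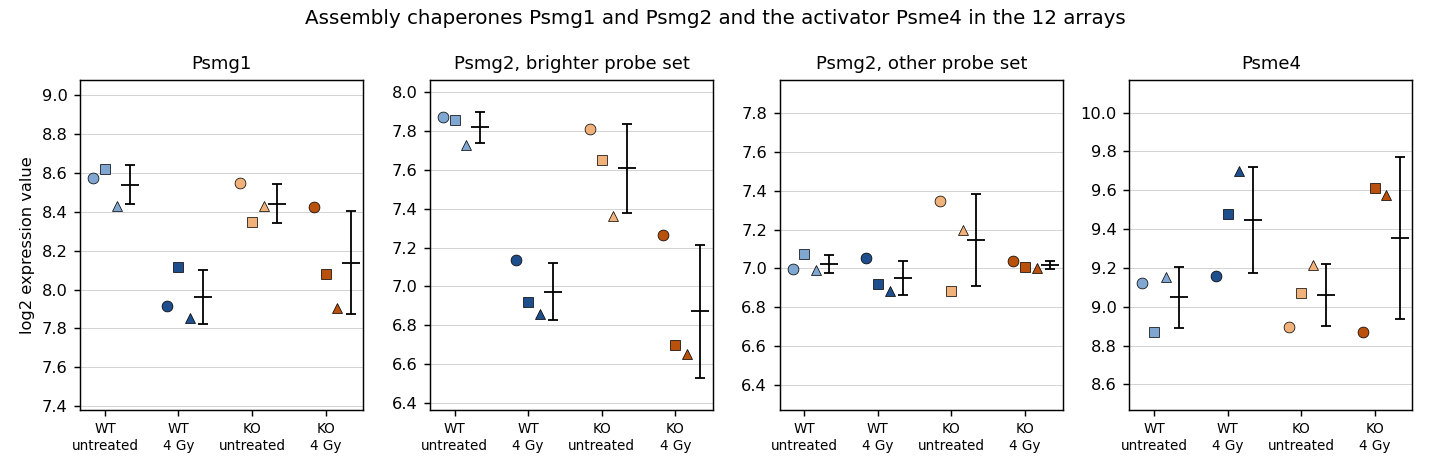
Log2 expression values of Psmg1, of Psmg2 on both its probe sets, and of Psme4 in each array (symbols for replicates 1, 2 and 3) with the group mean ± SD (n = 3). The brighter Psmg2 probe set lies at 6.65 to 7.27 in irradiated and 7.36 to 7.87 in untreated arrays, and the other probe set overlaps between doses.

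The structural body of the proteasome gave small estimates. Of the 32 tested genes of the 20S core and 19S cap, the immune subunits left aside, none passed the test in any contrast. Their averaged irradiation changes ran from -0.26 to 0.29, with a median of -0.07, and 22 of 32 were below 0. For 23 of the 32 the 95% interval lay within 0.5 of 0 on the log2 scale, and the outermost bounds were -0.66 for Psmd10 and 0.55 for Psmd5. Those genes, with Psmd9, are counted here by symbol but encode chaperones of the 19S base.

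The alpha subunits, which form the gate of the core, had estimates below 0 for all 5 tested, from -0.26 to -0.05. Psma7, with the smallest p of them, had log2 values of 11.18, 11.30 and 10.94 in WT untreated, 10.75, 11.47 and 10.46 in WT irradiated, 10.96, 11.23 and 10.84 in KO untreated and 11.04, 10.53 and 10.64 in KO irradiated arrays, which overlap in both genotypes (-0.26, limma adjusted p = 0.313). Without WT irradiated array 2 it passed on the lower side. The 7 constitutive beta subunits had 6 estimates below 0 and a median of -0.12, with Psmb3 at 0.17. The 6 ATPases, the ring that unfolds substrates, had 3 estimates below 0 and a median of 0.02. Psmc1 had 9.79, 9.92 and 9.65 in WT untreated, 9.68, 10.31 and 9.75 in WT irradiated, 9.56, 9.72 and 9.62 in KO untreated and 9.98, 10.05 and 10.22 in KO irradiated arrays. Its doses were apart in KO and overlapped in WT, and its averaged change of 0.29 did not pass the test (limma adjusted p = 0.0992). It passed with the replicate block within genotype and under cyclic loess normalisation.

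The 14 non-ATPase genes of the cap, among them the ubiquitin receptor Psmd4 and the deubiquitinase Psmd14, had 8 estimates below 0 and a median of -0.03. Psmd11, a scaffold subunit of the lid, had 10.68, 10.80 and 10.67 in WT untreated, 10.76, 10.96 and 10.95 in WT irradiated, 10.71, 10.71 and 10.75 in KO untreated and 10.78, 10.99 and 11.04 in KO irradiated arrays. Doses were apart in KO and overlapped in WT, its spread was among the narrowest of the family, and its averaged change of 0.19 ± 0.08 (SE) did not pass (limma adjusted p = 0.099). Of the interferon-inducible activator PA28, Psme1 and Psme2 had changes of -0.11 and -0.16, and Psme3, the nuclear relative, -0.23. Psmf1, an inhibitor of the core, read 7.61, 7.62 and 7.49 in WT untreated, 7.47, 7.34 and 7.21 in WT irradiated, 7.51, 7.53 and 7.34 in KO untreated and 7.64, 7.27 and 7.56 in KO irradiated arrays. Its doses were apart in WT and overlapped in KO, and its averaged estimate was -0.10 (limma adjusted p = 0.482).

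**Figure D4:**
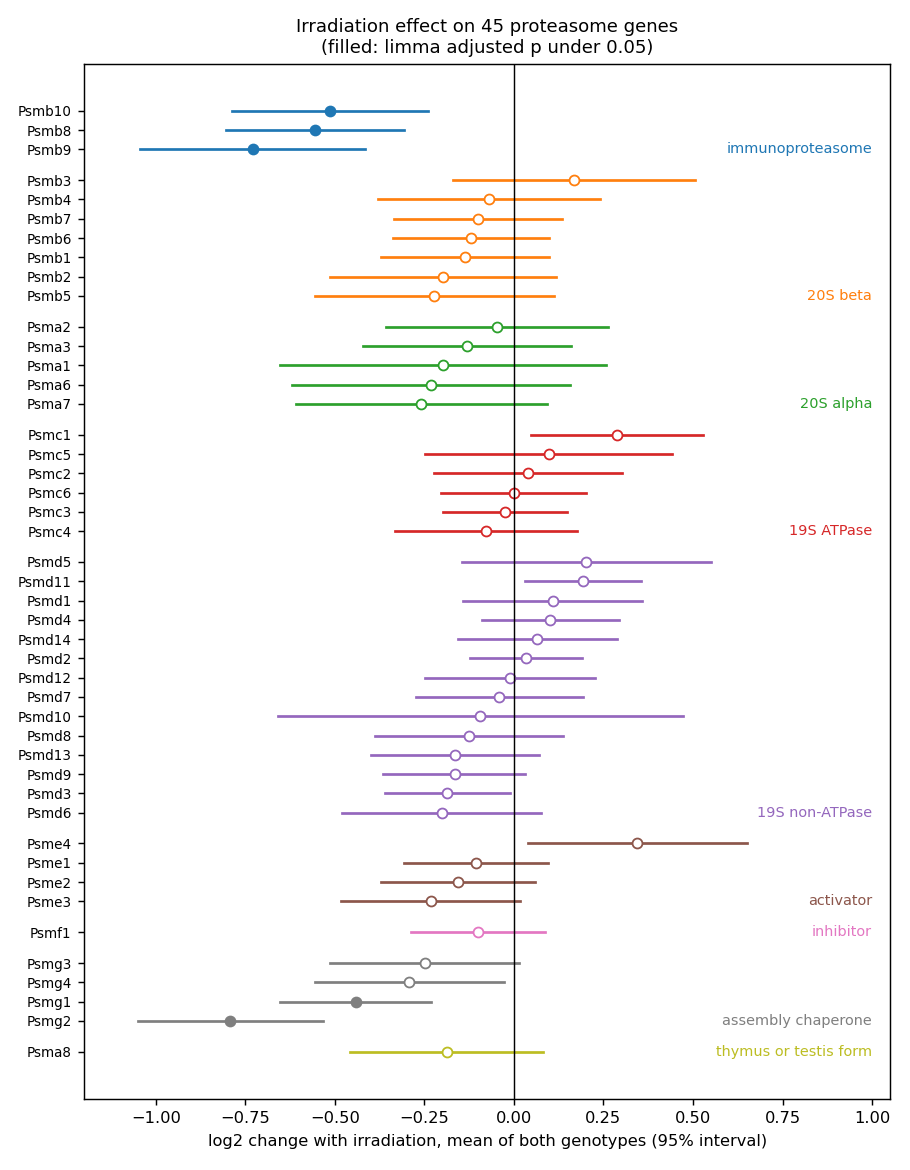
Log2 change with irradiation, averaged over genotypes, of the 45 tested proteasome genes by role, with 95% intervals; filled points have a limma adjusted p under 0.05. The 3 immunoproteasome genes (-0.73 to -0.51) and the chaperones Psmg1 and Psmg2 (-0.44 and -0.79) are filled, and the core and cap genes lie between -0.26 and 0.29. Psmg2 is shown on its brighter probe set, and its other probe set did not show the fall.

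The core and cap genes also varied together between arrays of the same group. In WT irradiated array 2, 29 of the 32 lay above their group mean, by 0.32 on average, and in WT irradiated array 3 only 4 did, with an average of -0.24. In KO untreated array 2 the count was 29 and in array 3 it was 4; in WT untreated arrays 2 and 3 it was 28 and 3. Among KO irradiated arrays it was 24 in array 1 and 3 in array 2. The mean over all tested genes deviated by at most 0.03 in any array. Psmd10 had the widest spread within groups (SD 0.546) and Psmd2, a scaffold subunit of the 19S base, the narrowest (0.085), while the median over the 32 was 0.214, against 0.182 over all tested genes. All 6 catalytic genes, the 3 immune ones included, also read highest in WT irradiated array 2 within their group. Deviations of a core or cap gene correlated with the mean of the others at a median of 0.87, where all tested genes had 0.02 with the core mean. The 3 immune genes had 0.73 to 0.86, so their falls are not independent results. This shared deviation is part of the spread in each test above. It also means that a few arrays can set how many estimates fall below 0, with irradiation and with genotype.

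**Figure D5:**
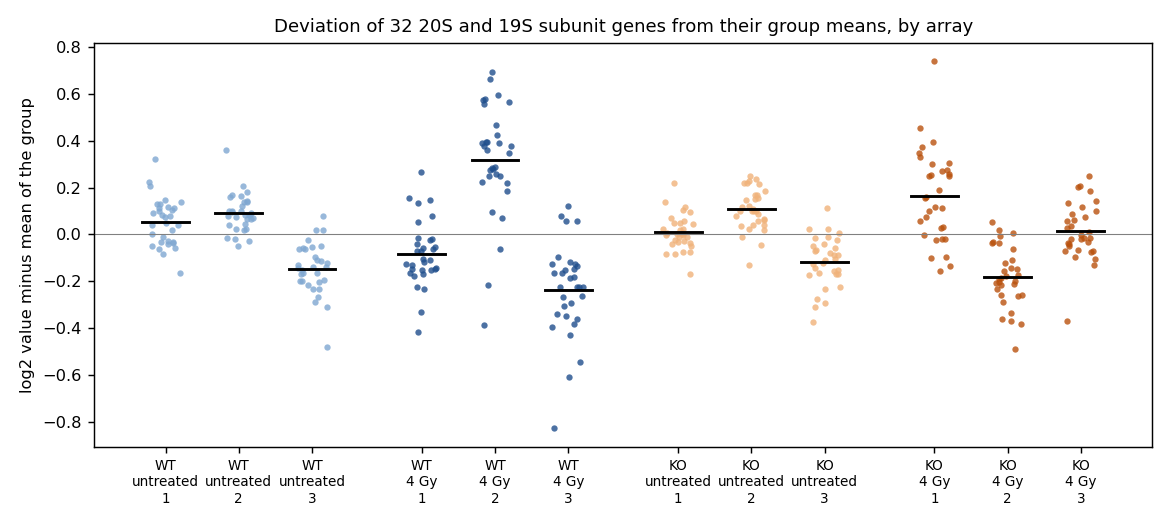
Log2 value minus the mean of its group for the 32 core and cap genes in each of the 12 arrays; each point is 1 gene and each bar the mean over genes. Most genes deviate together, from 0.32 above the group mean in WT irradiated array 2 to 0.24 below it (-0.24) in WT irradiated array 3.

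The loss of NIPA changed no proteasome gene by the test. In untreated cells 0 of 45 genes passed, where 0.00652% of all genes did (Zc3hc1 alone), and in irradiated cells 0 of 45, against the same 0.00652%. With an unadjusted p under 0.05 there was 1 proteasome gene in each, where all genes had 2.15% and 3.07%. It was Psma8, a testis form of an alpha subunit that read low on these arrays. Psma8 had log2 values of 6.36, 5.79 and 6.00 in WT untreated, 5.84, 5.84 and 5.58 in WT irradiated, 5.81, 5.17 and 5.36 in KO untreated and 5.36, 5.42 and 5.32 in KO irradiated arrays. KO arrays were the lower ones, without overlap after irradiation (6.4% of all genes did not overlap there), and the estimates of -0.60 and -0.39 had limma adjusted p of 1 and 0.999. In untreated cells 37 of the 45 estimates were below 0, with a median of -0.10 where all genes had 0.005 and 48.4% below 0. In irradiated cells 29 were below 0, against 52.7% of all genes, with a median of -0.06. The immunoproteasome genes had estimates of -0.18 to -0.08 untreated and -0.15 to -0.06 irradiated. No proteasome gene differed in its response to irradiation between genotypes by limma, at the adjusted threshold (0% of all genes) or at an unadjusted p under 0.05 (1.53% of all genes).

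Among genes that act with the proteasome, on a list chosen with earlier results of these data known, the calls were on the higher side. Of 27 listed helpers and regulators, 20 had a probe set of their own that passed the dim limit; 4 rose with irradiation averaged over genotypes and none fell, against 6.9% of all genes called higher, with a median of 0.06. Nfe2l2, the NRF2 regulator of antioxidant and some proteasome genes, rose by 0.91 ± 0.08 (SE; limma adjusted p = 2.38e-05). Zfand2a and Zfand5, zinc-finger proteins that associate with proteasomes, rose by 0.66 and 0.43 (adjusted p of 0.00175 and 0.0431), and Nploc4, a cofactor of the segregase VCP, by 0.32 (adjusted p = 0.0242). Nfe2l1, which drives proteasome subunit genes when degradation is blocked, had a change of 0.20 that did not pass (adjusted p = 0.17). Pomp, the chaperone that completes the core and favours the immune subunits, had -0.43 and did not pass (adjusted p = 0.0772). Uchl5 and Ube3c, with -0.33 and -0.27, did not pass either (limma adjusted p of 0.0664 and 0.0786). In all, 9 of the 20 helper estimates were below 0.

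Genes that handle the peptides made by the proteasome for class I presentation were also called higher where they were called. Of 14 listed genes of class I antigen processing 12 were tested, 2 were called higher (where 6.9% of all genes were) and none lower. The median of the 12 was 0.13, and 4 estimates were below 0. The risers were the chaperones Calr (0.39, limma adjusted p = 0.0159) and Canx (0.32, adjusted p = 0.0166). Tap1 and Tap2, the peptide transporter genes that alternate with Psmb9 and Psmb8 on chromosome 17, had changes of 0.22 and -0.29 (adjusted p of 0.275 and 0.402), and the class I gene H2-K1 had 0.36 (adjusted p = 0.0604). Of 20 interferon-response genes 17 were tested and 4 called, where 16.5% of all genes were called (6.9% higher, 9.6% lower): Mx2 and Igtp rose by 0.61 and 0.59, and Irf8 and Ifit2 fell by 0.66 and 0.53. Irf1, a known inducer of the immune subunits, had 0.16 (adjusted p = 0.347). In untreated cells 12 of the 17 had KO estimates below WT (48.4% of all genes) and 7 had an unadjusted p under 0.05 (2.15% of all genes), though none passed the test, and the list averaged 7.02 to 7.05 in the KO arrays and 7.21 to 7.40 in the WT ones. In irradiated cells 14 were below (52.7% of all genes) and 3 had an unadjusted p under 0.05 (3.07%), none passed, and the list means overlapped at 7.04 to 7.27 in KO and 7.10 to 7.44 in WT. The means of the interferon list were over 18 measured genes, with Mx1, which was below the dim limit, included. Both lists were chosen with earlier results of these data known, so their shares beside all genes are descriptions and not a test.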

How the data were processed

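Log2 expression values of 41345 probe sets on 12 arrays were deposited by the authors, processed with oligo and RMA per the submitters' processing notes (versions and annotation build not given in the sources used here). RMA corrects background, normalises between arrays by quantiles and summarises probes, so a uniform shift in RNA content is not visible. Of the probe sets, 23521 carried 1 gene symbol, 1814 several and 16010 none; 23328 gene identifiers matched RefSeq. The brightest probe set per gene was kept, and genes above 5.29 (the 40th percentile) on at least 3 arrays entered 1 linear model per gene (R 4.3.3, limma 3.58.1, moderated by eBayes; all 12 arrays in 4 groups, no block), adjusted by Benjamini-Hochberg over 15348 genes. The script was tested on simulated data. Replicates are pools whose origin from separate animals is not stated, so p-values measure the spread between these samples; the 3 arrays per group limit precision.

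In WT the deviations of same-numbered untreated and irradiated arrays correlated at 0.49, 0.48 and 0.42, and in KO at 0.47, -0.24 and -0.12. KO untreated arrays 2 and 3 instead correlated at 0.44 and 0.52 with an irradiated KO array of another number. Same-numbered arrays of WT and KO correlated at 0.16, 0.23 and 0.10 untreated and at 0.34, -0.29 and 0.28 irradiated. What samples of the same number share is not given by the labels and was not tested. Whether KO samples are paired under other numbers was not tested, and no block used such a pairing. Members and gene lists were chosen with earlier results of these data known. Values in every array are given for the catalytic subunits, for every gene past the test, and for the gene of smallest averaged p in each role. Alternatives were array medians subtracted, cyclic loess, the mean over probe sets of a gene, no dim limit, a trended and robust prior, only the arrays compared, the replicate block and leaving out each array.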

Additional observations from a re-analysis of the deposited data

How the results depend on the processing

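Averaged over genotypes, the 5 called genes stayed called under each of the alternatives run, except Psmg2 on its dimmer probe set, an alternative chosen after seeing the data; leaving out single arrays gave 5 to 9 called genes, cyclic loess 6 (with Psmc1 higher) and the replicate block within genotype 7 (with Psmc1 and Psme4 higher). The counts within 1 genotype moved. In WT the 2 called genes became 1 with the mean over probe sets and 0 to 5 with single arrays left out. In KO the 1 called gene became 0 with the mean over probe sets, 0 with only the arrays compared, and 0 to 3 with single arrays left out. With the replicate number as a block across groups the counts were 4 in WT and 3 in KO. With the replicate block within genotype they were 5 in WT and 3 in KO. Psmb8 and Psmb9 joined in KO, where same-numbered samples did not all deviate together. The block changed no call of a proteasome gene with genotype. The averaged shift of immune minus constitutive subunits ran from -0.49 to -0.42 and the genotype shift from -0.10 to -0.02 with single arrays left out. None of the results compared across these alternatives reversed, but estimates that did not pass the test differed in sign between 2 probe sets of a gene: Psmg2 with genotype (-0.21 and 0.12 untreated, -0.10 and 0.07 irradiated) and in the difference of effects (0.11 and -0.06), and Psmc2 with irradiation averaged (0.04 and -0.18). The cause of these moves was not tested. The median standard error of 1 proteasome gene was 0.117 averaged and 0.166 within a genotype, which limits what 3 arrays a group can show.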
